A study of Mus musculus with 21 samples.

Results

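The translatomes of the Emx1-lineage and of brain endothelial cells from the mouse forebrain at E14.5 were compared directly. A translatome is the RNA that is recovered with ribosomes, here by translating ribosome affinity purification (TRAP) with an mCherry tag on the ribosomal protein Rpl10a. The samples were chosen by their titles, and 6 of the 21 samples of the series belong to the comparison, 3 from the Emx1-lineage and 3 from brain endothelial cells. The comparison asks which translated transcripts separate a neural lineage from the vessels that run through it, and how far each purification left the other cell type behind.

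The Emx1-lineage samples came from Emx1Cre+/-;Gt(ROSA)26Sor-mCherry-Rpl10a+/- embryos and the endothelial samples from Cdh5CreERT2+/-;Gt(ROSA)26Sor-mCherry-Rpl10a+/- embryos. Both groups therefore carried a copy of the tag allele, which sits behind a stop cassette in the Rosa26 locus, is driven by the ubiquitous CAGGS promoter once Cre has removed that cassette, and descends from a single targeted embryonic stem cell clone. Cdh5CreERT2 is a transgene whose Cre works only after tamoxifen, which was given to the dams by oral gavage. Emx1Cre needs no drug and marks every descendant of a cell that once expressed Emx1, whether or not Emx1 is still on. Embryos were picked by red fluorescence, the dissected tissue was the forebrain with part of the diencephalon, and tissue of more than 1 embryo could enter a library. In the study's sample list each of these 2 groups was sequenced in a lane of its own, so that lane and cell type cannot be told apart. Only the endothelial driver needs tamoxifen, so drug exposure cannot be told apart from cell type either. For reference, levels are also given in 3 translatome libraries of whole forebrain from Sox2Cre+/- embryos with the same tag allele, in which all cells of the embryo proper are tagged. Means are quoted in places from 3 kidney endothelial translatome libraries, of the same genotype as the brain endothelial ones, and from 3 libraries of forebrain total RNA from the Sox2Cre+/- embryos.

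The Emx1-lineage builds the dorsal telencephalon. Apical progenitors line the ventricle and give rise to intermediate progenitors, and both produce the excitatory projection neurons of the cortex. Endothelial cells are of mesodermal origin, invade the neural tube from outside and acquire the blood-brain barrier, a set of tight junctions and transporters that they take on under the influence of neural tissue. Much of that exchange runs through secreted ligands of neural cells and receptors on the vessels. A direct comparison of the translatomes shows in which purification each side of a signalling pair is higher. It does not by itself place a gene in a cell type, since each library can hold RNA of other cells.

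The files gave 31682609 to 79231692 reads on genes in the Emx1-lineage libraries and 53530594 to 62482261 in the endothelial libraries, and between 17002 and 17784 of 23827 listed rows had a read. Pearson's r of log2(RPKM + 1) across rows was 0.9986 to 0.9992 among the Emx1-lineage libraries and 0.9971 to 0.9982 among the endothelial libraries, against 0.8991 to 0.904 for the 9 pairs between groups. Rows are not independent replicates, and no library stood apart from its group. The ribosomal RNA precursor row Rn45s held 0.094% to 0.129% of the reads in the Emx1-lineage and 0.814% to 1.077% in endothelial cells. RPKM is the number of reads per kilobase of transcript, scaled to the mapped reads of the library. Levels below are RPKM, written as the mean ± SD of 3 libraries, whereas log2 fold changes come from the read counts and are coded Emx1-lineage minus endothelial cells. The ratio of mean RPKM values lies above the fitted fold change by about 0.21 on the log2 scale for most transcripts. The fit corrects for the composition of the libraries, and without that correction the median over all transcripts shifts by 0.22.

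Promoters of leading genes were read from RefSeq (GRCm38.p6), from 250 bases before to 50 bases after the transcript start. A pair of short motifs was searched on both strands. The first was the core CAGGAA, which reads as TTCCTG on the other strand, the kind of site bound by ETS factors such as Erg and Fli1, which are known regulators of endothelial genes. The second was the E-box CATCTG, which reads as CAGATG on the other strand, the kind of site bound by neurogenic bHLH factors such as Neurod2 and Neurog2. Of all 32851 promoters in the table, 30.6% held the ETS core and 17.2% the E-box. For the list of endothelial surface and junction genes, 16 of 26 genes had an entry, and 13 of their 19 promoters (68.4%) held the ETS core and 5 (26.3%) the E-box. For cortical projection neuron genes, 15 of 20 genes had an entry, and 9 of their 29 promoters (31.0%) held the ETS core and 12 (41.4%) the E-box. For intermediate progenitor genes, 13 of 15 had an entry, and 2 of their 19 promoters (10.5%) held the ETS core and 5 (26.3%) the E-box, the same share as for the endothelial surface genes. Endothelial transcription factor genes did not follow the surface genes, since 5 of 20 promoters (25.0%) held the ETS core. A match is a run of letters and not a shown binding site. The promoters below belong to Cd34, Tie1 and Tek, which encode surface proteins of endothelial cells, and to Neurod2 and Nhlh1, which encode neuronal bHLH factors. Capitals mark either motif.
Cd34 (chr1:194938571-194938870, plus strand): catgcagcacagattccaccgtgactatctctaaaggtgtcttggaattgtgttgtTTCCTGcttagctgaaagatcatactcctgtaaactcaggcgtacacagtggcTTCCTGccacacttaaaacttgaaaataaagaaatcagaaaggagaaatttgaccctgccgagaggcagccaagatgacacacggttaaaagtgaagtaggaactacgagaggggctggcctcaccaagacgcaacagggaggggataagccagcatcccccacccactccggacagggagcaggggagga
Tie1 (chr4:118489800-118490099, minus strand): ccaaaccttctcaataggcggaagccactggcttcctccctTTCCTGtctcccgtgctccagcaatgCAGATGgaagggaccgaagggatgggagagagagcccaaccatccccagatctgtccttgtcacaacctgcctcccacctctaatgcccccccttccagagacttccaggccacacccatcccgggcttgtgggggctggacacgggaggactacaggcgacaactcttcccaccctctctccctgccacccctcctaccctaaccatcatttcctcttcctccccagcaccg
Tek (chr4:94739039-94739338, plus strand): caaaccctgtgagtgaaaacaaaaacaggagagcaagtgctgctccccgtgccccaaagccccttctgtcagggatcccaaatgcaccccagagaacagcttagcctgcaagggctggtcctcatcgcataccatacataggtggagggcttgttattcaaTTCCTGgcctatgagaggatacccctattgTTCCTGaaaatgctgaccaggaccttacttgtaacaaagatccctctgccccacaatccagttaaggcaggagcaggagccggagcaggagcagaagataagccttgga
Neurod2 (chr11:98329596-98329895, minus strand): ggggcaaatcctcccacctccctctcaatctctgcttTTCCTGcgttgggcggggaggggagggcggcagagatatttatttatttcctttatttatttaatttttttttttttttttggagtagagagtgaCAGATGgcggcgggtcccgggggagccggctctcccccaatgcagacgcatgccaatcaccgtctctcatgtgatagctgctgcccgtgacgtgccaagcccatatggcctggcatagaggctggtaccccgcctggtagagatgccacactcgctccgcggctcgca
Nhlh1 (chr1:172057547-172057846, minus strand): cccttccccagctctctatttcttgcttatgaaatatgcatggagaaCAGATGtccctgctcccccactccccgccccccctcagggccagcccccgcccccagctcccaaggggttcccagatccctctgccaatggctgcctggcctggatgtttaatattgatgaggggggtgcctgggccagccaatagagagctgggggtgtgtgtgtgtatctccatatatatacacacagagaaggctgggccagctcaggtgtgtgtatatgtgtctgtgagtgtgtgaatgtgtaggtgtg
Neither motif was found in the promoter windows of Cldn5 and Neurod6. The tables used here have no entry for Cdh5.

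Markers of each cell type were high in the libraries labelled for it. Neurod6, a bHLH factor of cortical projection neurons, had RPKM values of 485.6, 452.3 and 511.5 in the Emx1-lineage libraries and of 30.89, 18.93 and 17.65 in the endothelial libraries. The groups did not overlap, which with the Emx1-lineage above held for 44.2% of all transcripts tested. The whole forebrain lay between the groups at 216.5 ± 8.36. The log2 fold change of Neurod6 was 4.21 (SE 0.19, adjusted p = 1.5e-09). Cdh5 encodes VE-cadherin, the adhesion molecule of endothelial junctions, and supplied the promoter of the endothelial driver. Its RPKM values were 0.689, 0.664 and 0.805 in the Emx1-lineage and 368.5, 348.2 and 393 in endothelial cells, with 16.61 ± 1.55 in the whole forebrain. This is a log2 fold change of -9.21 (SE 0.11, adjusted p = 2.7e-14), or 591.6-fold. Emx1 itself was at 91.57, 102.5 and 93.32 in the Emx1-lineage and at 13.44, 7.425 and 9.292 in endothelial cells (log2 fold change 3.03, SE 0.17, adjusted p = 8.2e-09). Rpl10a, the ribosomal protein that carries the tag, did not pass the test (6.62 ± 0.455 against 5.25 ± 0.49, log2 fold change 0.12, adjusted p = 0.39). Endogenous and tagged copies share that row.

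**Figure D1:**
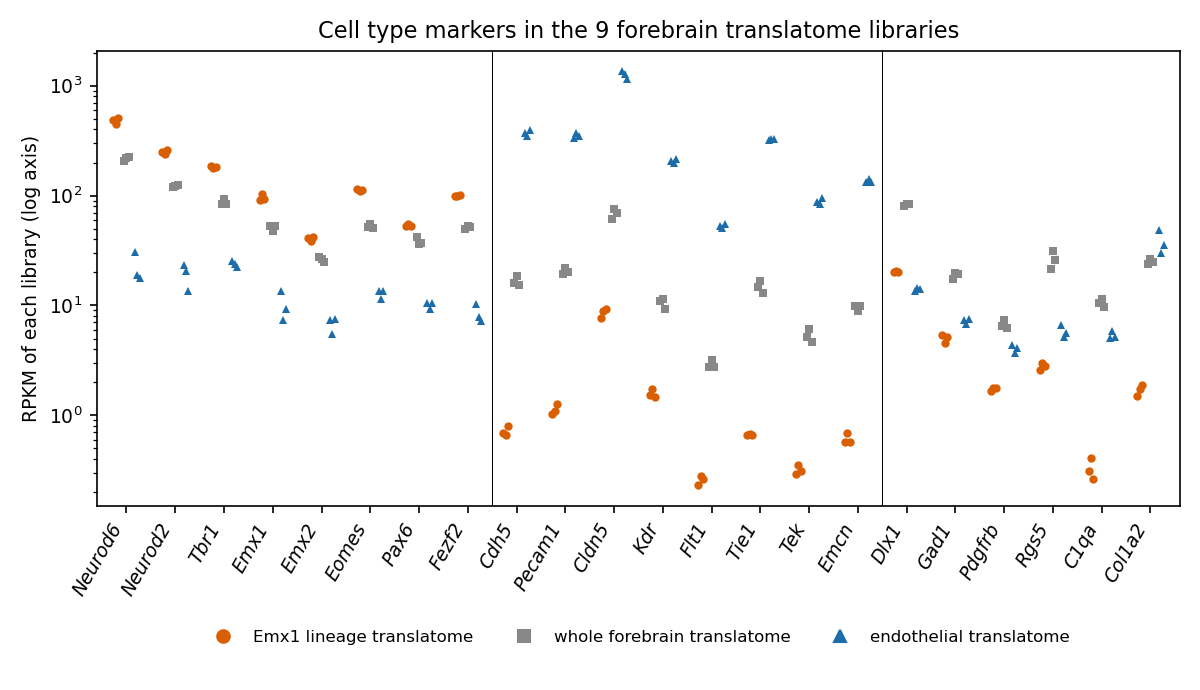
RPKM of cell type markers in each library on a log axis: 3 Emx1-lineage libraries (circles), 3 whole forebrain libraries (squares) and 3 endothelial libraries (triangles), with neural markers on the left, endothelial markers in the middle and markers of other cells on the right. Neurod6 lies at 452.3 to 511.5 in the Emx1-lineage and at 17.65 to 30.89 in endothelial cells, while Cdh5 lies at 0.664 to 0.805 and at 348.2 to 393, so the endothelial markers are farther apart than the neural ones.

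A transcript was called when its adjusted p was under 0.001 and its fold change over 2. Of 19143 transcripts tested, 2244 (11.7%) were higher in the Emx1-lineage and 3309 (17.3%) were higher in endothelial cells, 29% in either direction. On the scale without correction for composition the calls were 3029 and 2906, which puts 51.0% of them on the Emx1-lineage side in place of 40.4%. The adjusted p alone was passed by 51.1% of them. The median log2 fold change over all transcripts was 0.01. Since small differences pass this test so often, the size of a difference carries more than its p. Among transcripts with a mean of at least 5 RPKM in a group, 1517 of 10397 (14.6%) were higher in the Emx1-lineage and 1884 (18.1%) in endothelial cells.

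Sizes differed far more than numbers. Among these transcripts at over 4-fold, 374 were higher in the Emx1-lineage and 1129 in endothelial cells. At over 16-fold the numbers were 8 and 521, and at over 64-fold 1 and 239. The 8 included Rpl29 and Rps18, and the 1 was Rpl29. The values of both genes are uncertain, as described under the other observations. The median fold of called transcripts was 2.83 on the Emx1-lineage side and 5.38 on the endothelial side, and the largest hundredth began at 11.89-fold and at 507.4-fold. How much of the other side's level each library held depended on the gene list. Across the endothelial surface list, the Emx1-lineage held a median of 0.447% of the endothelial RPKM. Other endothelial lists lay higher, at 1.362% for transcription factors, 5.449% for the basement membrane, 19.11% for integrins and 32.39% for tight junctions. Across the intermediate progenitor list, the endothelial libraries held 20.38% of the Emx1-lineage RPKM, and across the projection neuron list 29.37%. These are medians over list members with a mean of at least 1 RPKM in a group. In bulk samples such as these, fewer cells of a type and less RNA per cell cannot be told apart, and the source of these residual levels was not tested.

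**Figure D2:**
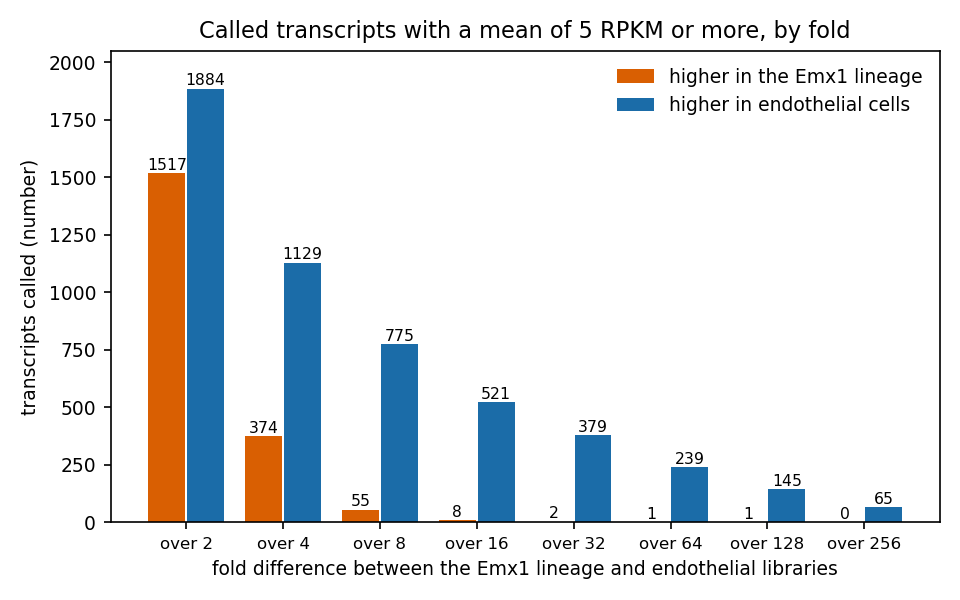
Number of transcripts called in each direction at rising fold thresholds, among the 10397 transcripts with a mean of at least 5 RPKM in a group, with orange bars for the Emx1-lineage and blue bars for endothelial cells. The bars start close together at over 2-fold (1517 and 1884) and separate to 8 and 521 at over 16-fold. The 8 include Rpl29 and Rps18, whose values are uncertain.

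**Figure D3:**
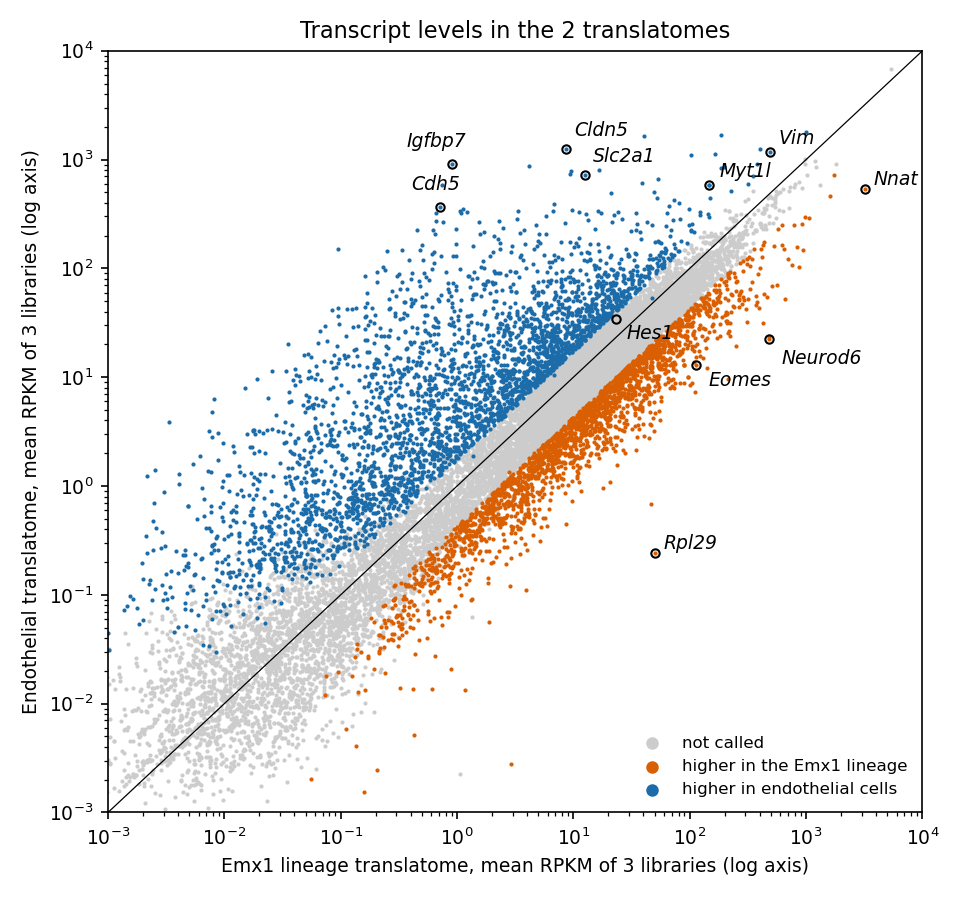
Mean RPKM of each transcript in the Emx1-lineage (horizontal) and in endothelial cells (vertical), both on log axes, with called transcripts in orange or blue and the line of equal levels. Of 19143 tested transcripts 17818 are drawn and 1325 fall outside the axes or are at 0 in a group. Cdh5 and Igfbp7 lie far above the line, and Neurod6 lies less far below it, with Rpl29 farther below.

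Gene lists for cell types and pathways, 41 lists with 565 genes of which 560 were tested, describe both sides. Of 15 intermediate progenitor genes 13 were higher in the Emx1-lineage and none in endothelial cells, with a median log2 fold change of 2.08. Hes6, a modifier of Notch signalling and the list's most abundant member, was at 148 RPKM in the Emx1-lineage and at 40.4 in endothelial cells (log2 fold change 1.66). Eomes encodes the T-box factor Tbr2, which defines these progenitors, and was at 114, 111.2 and 112.5 in the Emx1-lineage and at 13.55, 11.45 and 13.47 in endothelial cells (log2 fold change 2.92, SE 0.07). The largest change was in Neurod1, another bHLH factor of newborn neurons (45.07 ± 1.73 against 3.73 ± 0.394, log2 fold change 3.39). The 2 list members that were not called were Chd7, a chromatin remodeller (23.3 against 26.3), and Btg2, an antiproliferative gene (log2 fold change 0.10).

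Of 20 projection neuron genes, 13 were higher in the Emx1-lineage and 1 in endothelial cells, with a median of 1.60. After Neurod6 the largest changes were in Neurod2 (250.1 ± 9.18 against 19.16 ± 5.06, log2 fold change 3.49) and Fezf2 (100.1 ± 1.85 against 8.51 ± 1.67, log2 fold change 3.34), which specifies deep-layer neurons. Tbr1, which marks layer 6 neurons and comes on as Eomes goes off, changed by 2.71. Foxp2 (5.80 against 6.46) and Tle4 (31.1 against 18.8) stayed within 2-fold. Slc17a7, the vesicular glutamate transporter of these neurons, lay outside the list and changed by 3.61 (40.36 ± 0.715 against 2.86 ± 0.313).

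Of 20 apical progenitor genes, 13 were higher in the Emx1-lineage and 3 in endothelial cells, with a median of 1.49. Fabp7, the radial glial fatty acid binding protein, was the list's most abundant member at 946.4 ± 20.6 against 146 ± 28.3 (log2 fold change 2.49). The largest change was in Tfap2c (23.06 ± 1.12 against 2.38 ± 0.367, log2 fold change 3.06), followed by Emx1 and Dmrta2. Pax6 (2.18), Lhx2 (2.35) and Nr2e1 (2.46), all patterning or maintenance factors of the cortical primordium, moved by similar amounts. Hes1, a Notch target used by progenitors of many tissues, was within 2-fold (23.29 ± 2.23 against 34.5 ± 2.98), while its relative Hes5 was higher in the Emx1-lineage (27.3 against 7.23, log2 fold change 1.71).

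Of 22 genes of the neuronal cytoskeleton and axon, which neurons of all forebrain regions use, 16 were higher in the Emx1-lineage (median 1.44). Tuba1a was the most abundant at 1616 against 463 RPKM. Stmn3, which regulates microtubules, changed most (2.85). The Emx1-lineage held a median of 95.02% of the whole forebrain level of this list, 136.9% for intermediate progenitors and 152.4% for projection neurons. Endothelial libraries held 29.79%, 25.84% and 43.02% of the same forebrain levels.

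Over all transcripts, the most abundant ones changed over 4-fold in favour of the Emx1-lineage were Nnat, Fabp7, Nsg2, Tubb2b, Cd24a, Basp1, Rtn1, Uchl1, Stmn2 and Igfbpl1. Nnat, an imprinted gene that encodes neuronatin, was at 3266, 3125 and 3246 in the Emx1-lineage and at 682, 438.6 and 473.8 in endothelial cells. It was higher still in the whole forebrain (5159 ± 426). Igfbpl1, a secreted IGF-binding-like protein, belonged also to the largest folds (484 ± 9.31 against 23.58 ± 5.20, log2 fold change 4.15). Other large changes were in Tmem59l (4.05), Tesc (4.04), Necab3 (4.03), Thy1 (3.81), the somatostatin receptor Sstr2 (3.77), Serinc2 (3.76), the neuropeptide Cck (3.72) and Ttc9b (3.69).

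Several genes known from neural cells were higher in endothelial cells. Myt1l, a neuronal zinc finger factor, had RPKM values of 141.6, 153.2 and 142.5 in the Emx1-lineage and 593.3, 765.9 and 373.7 in endothelial cells (log2 fold change -2.19, SE 0.20, adjusted p = 8.8e-07). The endothelial libraries were all higher, with a spread far wider than that of the Emx1-lineage. Myt1l was at 103.7 ± 12.9 in the whole forebrain translatome, 40.94 in whole forebrain total RNA and 0.0224 in the kidney endothelial translatome. Of 10 Cajal-Retzius genes 2 were higher in the Emx1-lineage (Trp73 and Calb2) and 2 in endothelial cells (Reln and Cxcr4). Over all transcripts tested the shares were 11.7% and 17.3%. The list's median log2 fold change was 0.34, so its members as a set did not lean to endothelial cells. The summed level of Cajal-Retzius genes was 170.6 to 176 RPKM in the Emx1-lineage and 242.5 to 324.1 in endothelial cells, where Reln and Cxcr4 added to it. Reln, the glycoprotein these cells secrete, was at 54.65 ± 1.95 against 176.5 ± 48.6 (log2 fold change -1.90), and its 3 endothelial libraries ranked as those of Myt1l did. The neurofilament genes Nefl (13.18 ± 0.905 against 42.67 ± 7.01) and Nefm (22.25 ± 1.01 against 60.58 ± 5.24) were likewise higher in endothelial cells. Nes and Vim, intermediate filament genes used as progenitor markers, were higher in endothelial cells too. Nes was at 66.82 ± 3.89 against 373.3 ± 32.5 (log2 fold change -2.69) and Vim at 489 ± 5.01 against 1167 ± 17.9 (-1.47). Both were also abundant in the kidney endothelial translatome, at 141.6 and 874.6 RPKM, unlike Myt1l. Notch1, a receptor used by progenitors and vessels alike, was at 13.7 against 29.4 (-1.32).

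On the endothelial side, all 26 surface and junction genes were higher in endothelial cells, and in all 26 no Emx1-lineage library reached the level of any endothelial library, which held for 28.9% of all transcripts tested. Their median log2 fold change was -8.04, with a range from -9.85 to -6.09. Cldn5, the main claudin of brain vessels, was the most abundant of them at 1350, 1291 and 1147 RPKM, against 7.71, 8.97 and 9.30 in the Emx1-lineage. The largest fold belonged to Cd34, a sialomucin of endothelial and blood progenitor cells (0.739 ± 0.0934 against 585.7 ± 26.7, log2 fold change -9.85, SE 0.11). Tie1, a receptor tyrosine kinase of vessels, had the tightest values, at 0.656, 0.674 and 0.657 against 320.3, 325.1 and 328.6 (log2 fold change -9.15, SE 0.08). The least separated members were Esm1, Egfl7 and Plvap, at 12.1, 394 and 84.4 RPKM in endothelial cells and log2 fold changes of -6.09, -6.19 and -6.26. Plvap, the diaphragm protein of leaky capillaries, was at 419 RPKM in the kidney endothelial translatome.

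Of 26 endothelial transcription factor genes, 25 were higher in endothelial cells (median -6.46). Sox18, a SoxF factor, and Lmo2, a partner of Tal1, were the most abundant at 266 and 263 RPKM against 1.55 and 8.52. The shear-responsive factor Klf2 changed most (0.229 against 103, log2 fold change -9.06), with Sox7 (-9.01) and Hhex (-8.73) next. Hey1, a Notch target also used by neural progenitors, stayed within 2-fold at 30.22 ± 2.36 against 46.55 ± 0.687 (log2 fold change -0.84). Foxf2, Foxq1, Foxl2 and Lef1 were high in brain endothelial cells and low in the kidney endothelial translatome. Foxq1 was at 1.24 ± 0.109, 84.85 ± 5.56 and 1.66 RPKM in the Emx1-lineage, brain and kidney endothelial translatomes.

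Transporters of the blood-brain barrier were higher in endothelial cells in 18 of 20 cases (median -5.51). Slc7a5, the large neutral amino acid transporter, was the most abundant at 802.2 ± 24.1 against 16.63 ± 0.884. Slc2a1, the glucose transporter Glut1, was at 11.72, 13.88 and 11.74 in the Emx1-lineage and at 698.1, 713.2 and 754 in endothelial cells (log2 fold change -6.07, SE 0.09). Slc38a5, a glutamine transporter, changed most (0.653 ± 0.116 against 275 ± 15.7, -8.98). Mfsd2a, a lipid transporter that keeps vesicle traffic low, was at 10.56 ± 0.314 against 169.9 ± 7.21 (-4.22), a smaller change from a higher neural level. Slc16a1 (5.83 against 4.28) and Slco1a4 (0.385 against 0.503), known from the mature barrier, were low in both groups and were not called.

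All 10 genes of caveolae and related vesicles were higher in endothelial cells (median -4.69), from Ptrf (-6.77), which coats caveolae, to the widely used Dnm2 (-1.22). Dnm2 lost its call without composition factors and in the test against a fold change of 2 (adjusted p = 0.0026 with glmTreat). Tight junction genes split, with 11 of 19 higher in endothelial cells and 3 in the Emx1-lineage (median -1.67). Beside Cldn5, the endothelial side held F11r (0.524 against 90.8, -7.67), Ocln (0.452 against 25.3, -6.03) and Lsr (4.62 against 150, -5.24), a component of tricellular junctions. The Emx1-lineage was higher in Cldn3 (4.36 against 0.910, 2.05), Tjp3 (1.94 against 0.623, 1.43) and Jam3 (30.3 against 11.5, 1.19). Tjp3 and Jam3 lost the call in the test against a fold change of 2 (adjusted p = 0.012 and 0.019 with glmTreat). Cgnl1 was higher in endothelial cells with a wide spread between the endothelial libraries (18.28, 14.05 and 28.35, against 0.304 to 0.513).

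The vascular basement membrane was strongly separated. Of 19 genes 17 were higher in endothelial cells (median -4.11) and the others were under 1 RPKM in both groups. Sparc, a matrix glycoprotein, was the most abundant (40.49 ± 0.838 against 1642 ± 46.8) and Col4a1, the chain of the main network collagen, changed most (3.25 against 284, -6.66). Agrn, which neural cells also make, changed least among those called (81.0 against 402, -2.52). Of 15 integrins, the matrix receptors, 13 were higher in endothelial cells. Itgb1, the common beta subunit and the most abundant, was at 28.5 against 149 (-2.60), and Itga1 changed most (-6.00). Itgb8, known from radial glia, where it activates TGF-beta for the vessels, was the exception (5.47 against 2.23, 1.09). Its call was lost in the test against a fold change of 2 (adjusted p = 0.22 with glmTreat).

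Outside the lists, the largest endothelial folds were in AU021092 (log2 fold change -10.71), Igfbp7 (-10.13), Serpina3h (-10.01), Grap (-9.55), Myct1 (-9.51), Akr1c14 (-9.13), Adh1 (-9.13), Scarf1 (-9.12), Mmrn1 (-9.11), Prnd (-9.09) and Il2rg (-9.07). Igfbp7, a secreted IGF-binding protein of vessels, had 1.11, 0.764 and 0.842 RPKM in the Emx1-lineage and 950, 950.4 and 848.3 in endothelial cells. Serpina3h and Adh1 had wide spreads among endothelial libraries (6.34 ± 2.01 and 9.72 ± 3.43). By level the leading transcripts after Rn45s, Sparc and Cldn5 were Ddx24, Mest, Igfbp7, Ramp2, Gnai2, Bsg and Slc7a5. Bsg, the partner of monocarboxylate transporters, was also frequent in the Emx1-lineage (184.8 ± 2.47 against 844.1 ± 44.4).

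**Figure D4:**
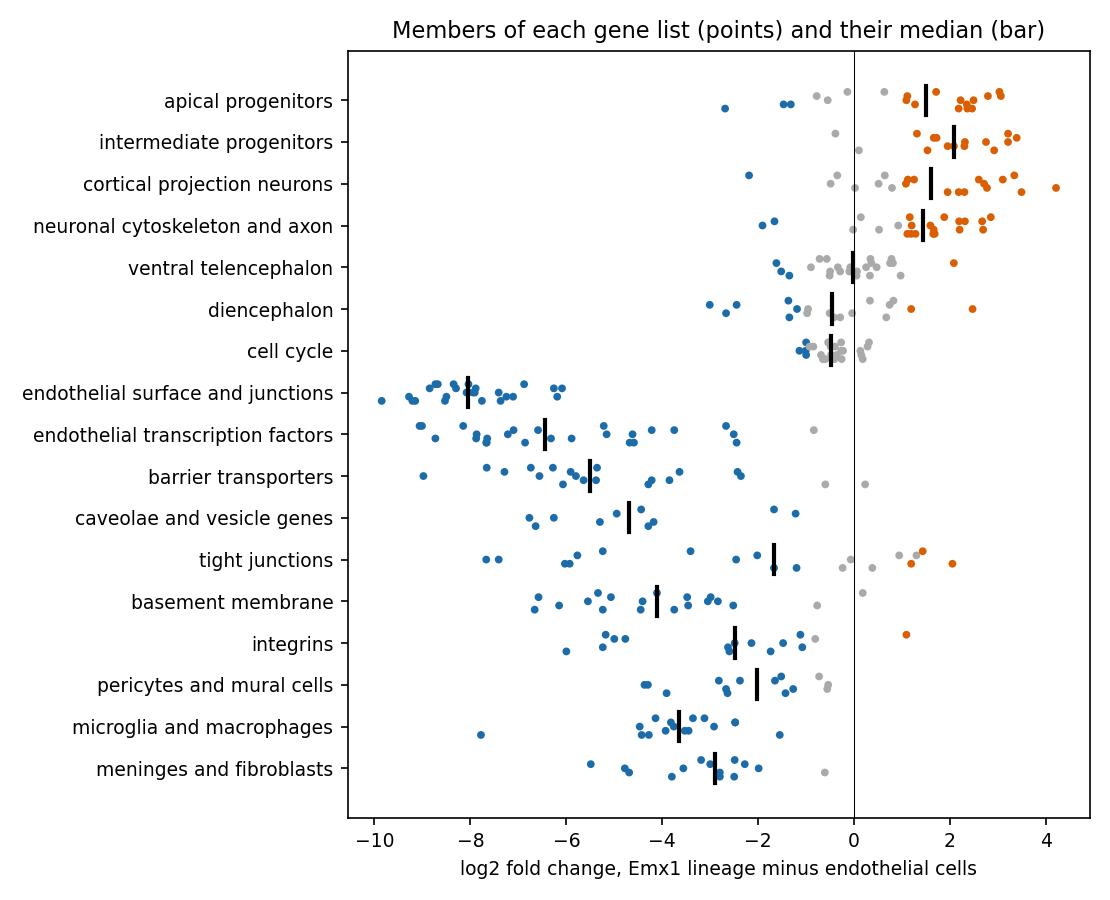
Log2 fold change (Emx1-lineage minus endothelial cells) of every tested member of 17 gene lists, as points in orange where higher in the Emx1-lineage, blue where higher in endothelial cells and grey where not called, with a bar at each list's median. The apical progenitor and projection neuron genes lie between -2.69 and 4.21, and the 26 endothelial surface genes lie between -9.85 and -6.09.

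Signalling genes were read as ligands, receptors and targets. Vegfa, the growth factor that draws vessels into the neural tube, was at 9.21, 8.77 and 9.06 in the Emx1-lineage and at 4.21, 3.96 and 5.04 in endothelial cells. The groups did not overlap, which with the Emx1-lineage above was the case for 44.2% of all transcripts tested. The log2 fold change of Vegfa, 0.83 (SE 0.09, adjusted p = 3.8e-06), stayed within 2-fold. Its relative Vegfb passed by a narrow margin (44.87 ± 1.38 against 19.32 ± 0.854, 1.01) that was lost in DESeq2 (0.96) and without Emx1-lineage replicate 1 (0.96) or 3 or endothelial replicate 2 or 3, while Vegfa exceeded 2-fold without composition factors (1.05). Vegfc, a ligand of Flt4, was higher in endothelial cells (2.91 against 17.6, -2.83). The receptors were higher in endothelial cells. Kdr, the main signalling receptor, was at 1.58 ± 0.152 against 206.4 ± 9.46 (-7.25), Flt1 changed by -7.91 and Flt4 by -8.85. The coreceptors Nrp1 (28.9 against 62.3, -1.32) and Nrp2 (29.8 against 44.2, -0.78), which axons use as semaphorin receptors, were present on both sides.

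Wnt7a and Wnt7b are made by neural progenitors and are required for vessels of the forebrain, and Gpr124 and Reck form the endothelial complex that reads them. Wnt7b was at 140, 137.3 and 139.8 in the Emx1-lineage and at 20.63, 17.45 and 17.24 in endothelial cells (log2 fold change 2.70, SE 0.08, adjusted p = 3.1e-11). Wnt7a was at 15.09 ± 1.29 against 4.11 ± 0.436 (1.67). Of 18 ligands and secreted modulators, 10 were higher in the Emx1-lineage, and Dkk2 alone was higher in endothelial cells (0.518 against 10.0, -4.50). Rspo3, which sustains Wnt receptors, changed most in favour of the Emx1-lineage (3.06), and the norrin gene Ndp changed by 2.60.

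On the receiving side, Gpr124 was at 1.32, 1.30 and 1.42 in the Emx1-lineage and at 79.9, 89.88 and 72.18 in endothelial cells (log2 fold change -6.11, SE 0.10). Reck was at 1.14 ± 0.0855 against 9.26 ± 0.419 (-3.22). Of 15 receptor genes, 8 were higher in endothelial cells and 4 in the Emx1-lineage, and the Frizzled family was divided. Fzd6 (-6.34), Fzd4 (-5.19), Fzd10 (-3.35) and, at the threshold, Fzd5 were higher in endothelial cells, and Fzd9 (2.05), Fzd3 (1.52), Fzd2 (1.42) and Fzd8 (1.06) in the Emx1-lineage. Fzd8 lost its call without Emx1-lineage replicate 2 (0.99), and Fzd5 without that library (-0.96) or endothelial replicate 2 (-0.85). In the test against a fold change of 2 with glmTreat, Fzd2 (adjusted p = 0.0012), Fzd3 (0.0011), Fzd8 (0.28) and Fzd5 (0.64) lost the call. Of 15 target genes, 8 were higher in endothelial cells and none in the Emx1-lineage (median -1.17). Apcdd1, a feedback inhibitor, was at 53.45 ± 3.32 against 669.1 ± 37.6 (-3.86) and at 7.93 in the kidney endothelial translatome, and Lef1, the nuclear effector, at 10.81 ± 0.228 against 50.96 ± 2.51 (-2.45) and 4.50 in the kidney. Axin2, a target in most tissues, was within 2-fold (13.1 against 19.3, -0.77), and so was Tnfrsf19 (29.6 against 43.3).

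**Figure D5:**
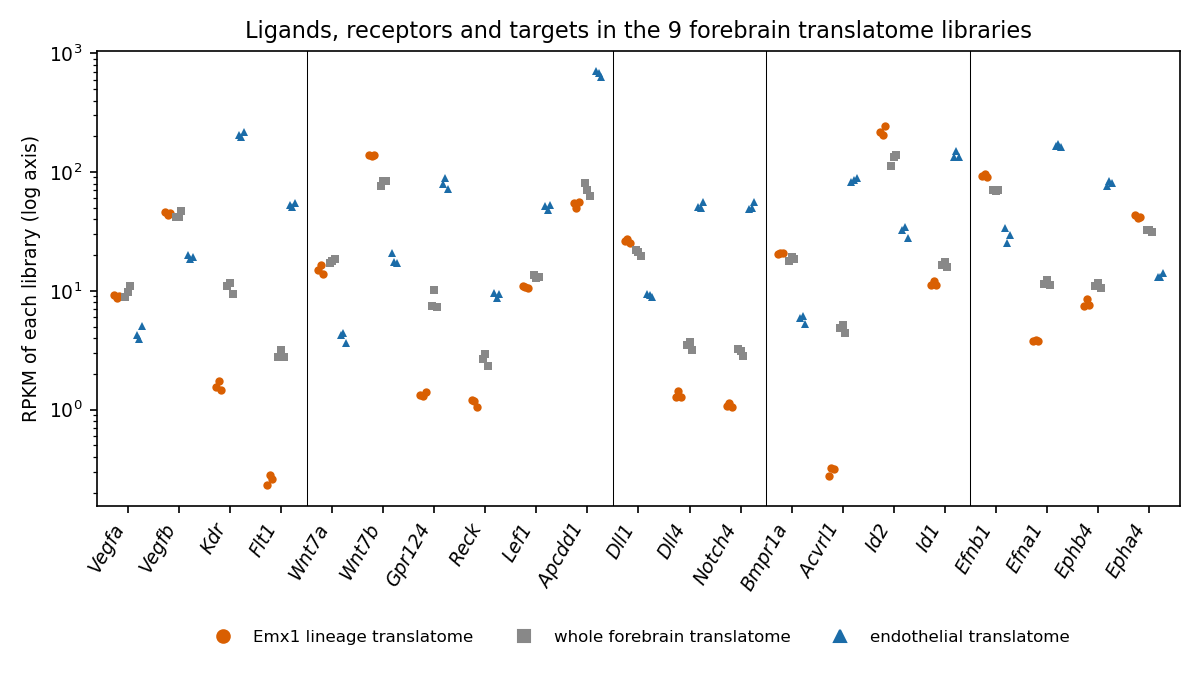
RPKM of ligands, receptors and targets in each library on a log axis, with 3 Emx1-lineage libraries (circles), 3 whole forebrain libraries (squares) and 3 endothelial libraries (triangles) and vertical lines between the VEGF, Wnt, Notch, BMP and ephrin genes. Wnt7b is at 137.3 to 140 in the Emx1-lineage and at 17.24 to 20.63 in endothelial cells, and Gpr124 lies the other way at 1.30 to 1.42 and 72.18 to 89.88.

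Notch genes were divided by family member. Dll1, the ligand of neural progenitors, was at 26.39, 27.37 and 25.44 in the Emx1-lineage and at 9.47, 9.27 and 8.84 in endothelial cells (log2 fold change 1.31), and Dll3 moved with it (1.53). Dll4, the ligand of sprouting tip cells, was at 1.33 ± 0.0943 against 51.94 ± 3.56 (-5.51), joined by Jag2 (-3.74) and Jag1 (-3.18). Among receptors, Notch4 was endothelial (1.09 ± 0.0467 against 51.55 ± 3.58, -5.78), whereas Notch2 (8.08 against 8.87) and Notch3 (10.6 against 15.2) were within 2-fold. Of 12 targets and modifiers, 3 were higher in the Emx1-lineage and 5 in endothelial cells, the latter with Nrarp (44.3 against 91.4, -1.26) and the fringe genes Mfng (-1.42) and Lfng (-1.39).

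BMP and TGF-beta receptors separated by type. Acvrl1, the endothelial receptor for circulating BMPs, was at 0.306 ± 0.0241 against 85.61 ± 2.99 (-8.36), its coreceptor Eng changed by -6.88 and Tgfbr2 by -7.07. Bmpr1a (20.7 against 5.77, 1.63) and Bmpr1b (1.82) were higher in the Emx1-lineage, and Bmpr2 (14.7 against 19.3) and Acvr1 (18.1 against 22.2) stayed within 2-fold. The Id genes, which are targets of these receptors, split evenly. Id2 (221.7 ± 18.8 against 31.72 ± 3.23, 2.60) and Id4 (1.48) were higher in the Emx1-lineage, and Id1 (11.53 ± 0.527 against 139.1 ± 8.97, -3.81) and Id3 (-3.99) in endothelial cells. Of 15 ligands and antagonists 5 were higher in endothelial cells, with Tgfb1 first (1.48 against 81.8, -6.03), and the BMP antagonists Nog (1.58), Fst (2.70) and Grem1 (2.18) were on the neural side.

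Of 8 ephrins 5 were higher in the Emx1-lineage, led by Efnb1 in level (93.16 ± 3.10 against 29.54 ± 4.15, 1.45) and Efna3 in fold (3.20), and Efna1 in endothelial cells (3.80 ± 0.0395 against 167 ± 4.53, -5.55). Among Eph receptors, Epha2 (-6.28) and Ephb4, the receptor of veins (7.88 ± 0.574 against 80.29 ± 3.52, -3.56), stood against Epha3 (2.38), Epha4 (1.44) and Epha5 (1.27). Plxnd1 was the only plexin of 9 higher in endothelial cells (16.37 ± 0.915 against 166.7 ± 3.20, -3.56), and Plxna4 the only one higher in the Emx1-lineage (1.09). Of all transcripts tested, 17.3% and 11.7% were called in these directions, so the plexin counts do not stand out. Plxna4 lost its call without endothelial replicate 1 (0.98) and in the test against a fold change of 2 (adjusted p = 0.24 with glmTreat). Robo4 (0.631 ± 0.16 against 141.6 ± 3.34, -8.04) and Unc5b (-3.88) were the endothelial members among 16 genes of the Slit and netrin systems, and 7 of these genes were higher in the Emx1-lineage, with Unc5a (2.46) first. Of 20 semaphorins, 7 were higher in the Emx1-lineage and 6 in endothelial cells, with Sema4d (1.90) and Sema3g (-6.71) at the ends.

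Genes by which vessels recruit mural cells or remodel were endothelial in 11 of 15 cases. Pdgfb, the ligand that attracts pericytes, was at 2.90 ± 0.235 against 141.9 ± 8.21 (-5.83), and Aplnr was at 0.759 ± 0.141 against 266.3 ± 14.1 (-8.70) with its ligand Apln at 2.34 ± 0.0329 against 152.2 ± 18.0 (-6.23). Pdgfc was the 1 gene of this list higher in the Emx1-lineage (7.05 against 2.86, 1.09). Its call was lost in the test against a fold change of 2 (adjusted p = 0.14 with glmTreat). Cxcl12 was higher in endothelial cells (20.64 ± 0.332 against 73.06 ± 1.66), but its counts gave a larger fold than its RPKM values, so the fold is uncertain. The receptor of that chemokine, Cxcr4, known from Cajal-Retzius cells and tip cells, was at 14.48 ± 0.533 against 47.28 ± 3.40 (-1.92).

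Some related genes took opposite sides. The 30 pairs read here were picked for an expected neural and an expected endothelial member, so they give no rate for related genes at large. In 15 pairs the neural member was higher in the Emx1-lineage and the endothelial member higher in endothelial cells. The glucose transporters Slc2a3 (7.37 ± 0.248 against 1.74 ± 0.0641, 1.87) and Slc2a1 (-6.07), the tubulins Tubb3 (1.65) and Tubb6 (2.36 ± 0.238 against 172.1 ± 6.83, -6.41), and the G protein gamma subunits Gng3 (212.3 ± 9.76 against 50.87 ± 7.87, 1.85) and Gng11 (2.28 ± 0.489 against 270.8 ± 8.01, -7.17) were among them. The splicing regulators Ptbp2 (112.3 ± 2.08 against 15.39 ± 1.68, 2.66) and Ptbp1 (51.36 ± 1.61 against 125.4 ± 0.659) also divided. These are textbook alternatives in neural and other cells. In 3 pairs both members were higher in endothelial cells, Cdh2 with Cdh5, Notch1 with Notch4 and Sema6d with Sema3g. Cdh2 was within 2-fold without composition factors (-0.88) and did not pass the test against a fold change of 2 (adjusted p = 0.087 with glmTreat), which leaves 2 such pairs. In 1 pair, Fabp7 and Fabp5, both were higher in the Emx1-lineage, with Fabp5 at 139.4 ± 25.1 against 12.10 ± 2.58 (3.31).

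Markers of other cell types showed what else each library held. Ventral telencephalic genes, which mark cells outside the Emx1-lineage, had no majority on either side. Of 24 genes 1 was higher in the Emx1-lineage and 3 in endothelial cells (median -0.01). Over all transcripts tested, 11.7% and 17.3% were called in these directions, so the counts do not stand out as high. Both groups stood far under the whole forebrain, with medians of 26.86% and 23.05% of its level. Dlx1, a master factor of interneurons, was at 20.3 in the Emx1-lineage, 13.9 in endothelial cells and 82.6 in the whole forebrain. Gad1, the enzyme of GABA synthesis, was at 5.07, 7.23 and 18.9, and was within 2-fold between the groups. Meis2, which cortical cells also express, was the gene higher in the Emx1-lineage (96.5 ± 4.52 against 19.60 ± 1.76, 2.08), and Foxp1 (-1.62), Ebf1 (-1.52) and Lhx6 (-1.35) were those higher in endothelial cells. Of 18 genes of the diencephalon 2 were higher in the Emx1-lineage and 6 in endothelial cells (median -0.47). Their medians were 40.58% and 34.4% of the whole forebrain level, while their summed level was 184.1 to 184.8 RPKM in the Emx1-lineage and 241 to 271.6 in endothelial cells.

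Mural, immune and meningeal genes were higher in the endothelial libraries. Of 14 pericyte genes, 11 were higher in endothelial cells. Over the 10 of them with at least 1 RPKM in a group, the endothelial libraries held a median of 81.25% of the whole forebrain level against 16.01% in the Emx1-lineage. The pericyte markers did not move together. Rgs5 was below the forebrain in both groups, at 2.79 ± 0.215, 5.79 ± 0.74 and 26.30 ± 5.05 in the Emx1-lineage, endothelial cells and whole forebrain. Pdgfrb was so too, at 1.74 ± 0.0565, 4.04 ± 0.304 and 6.71 ± 0.571. Cspg4, which encodes NG2 of pericytes and oligodendrocyte precursors, was the other way, at 487.7% of the forebrain level in endothelial cells. The summed level of the list was 20.00 to 22.94 RPKM in the Emx1-lineage, 73.95 to 87.45 in endothelial cells and 93.18 to 112.8 in the whole forebrain. All 16 microglial genes were higher in endothelial cells than in the Emx1-lineage. Over the 14 with at least 1 RPKM in a group, the medians were 56.33% and 4.975% of the forebrain level. The complement gene C1qa was at 0.328 ± 0.0739, 5.35 ± 0.427 and 10.57 ± 0.844. Laptm5, a lysosomal protein of blood cells, was the only 1 of the 16 above the forebrain level in endothelial cells, at 0.299 ± 0.0341, 56.09 ± 4.25 and 8.02 ± 0.683. Of 14 meningeal genes 13 were higher in endothelial cells, at 150.6% of the forebrain level against 21.46%, with summed levels of 50.93 to 58.77 in the Emx1-lineage, 228.3 to 363.8 in endothelial cells and 171.8 to 189.9 in the forebrain. Col1a2, a fibrillar collagen chain, was at 1.499, 1.728 and 1.901 against 48.31, 29.98 and 35.54. The part of these cells in the endothelial profile was not tested.

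Red cell genes gave no direction. Of 11 tested, 3 were higher in endothelial cells and 1 in the Emx1-lineage, beside 17.3% and 11.7% of all transcripts tested. Their summed level varied within groups, from 111.3 to 231.7 RPKM in the Emx1-lineage and from 119.9 to 166.6 in endothelial cells. The rows of Hba-a1, Hba-a2 and Hbb-b1 were listed at 0 in all libraries. Cell cycle genes differed by small amounts. For 13 of 25, all endothelial libraries lay above all Emx1-lineage libraries, and for 5 all lay below. Of all transcripts tested, these shares were 28.9% and 44.2%. None of 25 was called higher in the Emx1-lineage and 4 were called higher in endothelial cells, against 11.7% and 17.3% of all transcripts tested. The count of endothelial calls is thus near the share of all transcripts. The 4 were Cdk1 (25.1 against 47.8, -1.14), Mcm6, Mcm3 and Ccne2, and the list's median was -0.48. All 4 were within 2-fold without composition factors (-0.92 for Cdk1 and -0.78 for the others). Without endothelial replicate 3, Mcm6 (-0.97), Mcm3 (-0.95) and Ccne2 (-0.96) were within 2-fold too, as were Mcm3 without endothelial replicate 1, Mcm6 without Emx1-lineage replicate 2 and Ccne2 without Emx1-lineage replicate 1. Mki67, a marker of dividing cells, was at 34.3 against 26.2 and did not pass the test. Immediate early and heat shock genes were higher in endothelial cells in 8 of 15 cases, with Atf3 (0.199 ± 0.0917 against 10.81 ± 0.648, -6.00) and Hspb1 (0.0279 against 4.51, -7.17) first and Ier2 the most abundant of them (22.6 against 70.2, -1.85). Hspa8, a constitutive chaperone, was higher in the Emx1-lineage (55.31 ± 9.08 against 12.48 ± 1.64, 1.93), and it varied in the whole forebrain (15.56 to 42.15).

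Relative to the whole forebrain translatome, the levels of called transcripts did not fall evenly between the groups. Of the 1517 transcripts higher in the Emx1-lineage with a mean of at least 5 RPKM, 927 had a forebrain mean between those of the groups, 588 (38.76%) had a forebrain mean above both and 2 below both. Of the 1884 transcripts higher in endothelial cells, 1580 had a forebrain mean between, 287 (15.23%) below both and 17 above both. A forebrain level above both groups was the case for Nnat and Rtn1 (657.7 ± 38.5, 51.78 ± 10.9 and 803.7 in the Emx1-lineage, endothelial cells and forebrain) and for Tubb3 (1051 ± 13.6, 289.6 ± 47.2 and 1273 ± 35.4). These positions are read from means, without a test.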

How the data were processed

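RNA was sequenced from 3 Emx1-lineage and 3 brain endothelial TRAP samples, with 15 other samples of the series used only as stated. The authors mapped reads with RUM to GRCm38 (mm10, also named in the submitters' processing notes) and ran rpkmforgenes on the refGene annotation. The deposited counts are reads per row without normalization, and the deposited RPKM values were computed by the authors and are given here as levels. Counts of 31682609 to 79231692 per library entered the quasi-likelihood test of edgeR 4.0.16 (R 4.3.3, glmQLFit and glmQLFTest after TMM scaling, with Benjamini-Hochberg adjustment) over 19143 rows with at least 1 count, and transcripts were called at an adjusted p under 0.001 and a log2 fold change beyond 1. Levels, tables and figures were made in Python with pandas and matplotlib. Standard errors were derived from the log2 fold change and its F statistic, and the procedure was tested on simulated data. Where a symbol had several rows, the row with most reads was used; the file has 623 rows that share a symbol and accession. A total of 3 symbols were matched through RefSeq synonyms. The members and lists, and the rule for named genes, were chosen with earlier results of these data known. That rule took any list or pair member, led by each list's most abundant member, its largest changes and every member against its majority, then over all transcripts the 15 largest folds per direction (mean of at least 5 RPKM, no overlap) and the 10 highest levels beyond 4-fold. Nothing says that the 3 samples of a group came from separate litters, so p-values measure the spread between these samples. Replicate numbers did not pair the samples, since the correlations of same-numbered deviations were -0.035, 0.056 and 0.01. Alternatives were relative log expression factors, total counts, a filter of 10 counts in 3 samples, DESeq2 1.42.0, glmTreat, a replicate block, fits of 21 and of 9 samples, mRNA rows only, other fold thresholds and each replicate left out. Removal of the Rn45s row was added after seeing the data. Protein sequences were not used here.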

Additional observations from a re-analysis of the deposited data

How the results depend on the processing

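The counts of 2244 transcripts higher in the Emx1-lineage and 3309 higher in endothelial cells depended on the fold threshold and, less, on scaling. At over 4-fold they were 607 and 2146, and with the adjusted p alone 4829 and 4962. Testing against a fold change of 2 (glmTreat) gave 1217 and 2551. Without composition factors they were 3029 and 2906, so that 51.0% of calls in place of 40.4% were on the Emx1-lineage side. DESeq2 gave 2080 and 3418, relative log expression factors 2085 and 3422, and the remaining alternatives stayed within 1.5 times. With the replicate number as a block they were 2265 and 3302, although the numbers did not pair the samples. Leaving out each replicate gave 2022 to 2242 and 3196 to 3289. No transcript called in one direction was called in the other under any of these. Of 3498 values of 219 single genes named here, 3455 stayed on their side of the threshold, 42 of 17 genes lost the call, 1 (Vegfa) gained it and none turned. The genes that lost it had fitted changes of at most 1.52 on the log2 scale.
Each group has 3 samples, and reads of near-identical genes may be split in the counting. Group cannot be told apart from sequencing lane, or from tamoxifen, which only the endothelial driver needs. The depth of 31682609 reads in the smallest library limits transcripts at a few reads. Only tested members entered the list medians of log2 fold change. The list medians of percentages took only tested members with a mean of at least 1 RPKM in either group.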

Other observations

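Among the largest folds in favour of the Emx1-lineage were 3 genes, Rpl29, Rps18 and Hmgn2, that were singled out after their values were seen. Rpl29, a protein of the large ribosomal subunit, was at 57.13, 39.54 and 54.15 RPKM in the 3 Emx1-lineage libraries, at 0.273, 0.238 and 0.221 in endothelial cells and at 0.266 ± 0.0503 in the whole forebrain translatome (log2 fold change 7.46, SE 0.21). Rps18, of the small subunit, was at 46.50 ± 3.57, 0.677 ± 0.0659 and 0.575 ± 0.212 (5.89), and Hmgn2, a nucleosome-binding protein, at 34.81 ± 1.27, 2.16 ± 0.176 and 2.84 ± 0.603 (3.80). The means of the other groups were 0.423 to 0.637 for Rpl29 in forebrain total RNA and the kidney translatomes. As the Emx1-lineage is part of the whole forebrain, a level many times above both is not the pattern of Neurod6 or Eomes. These genes have near-identical copies elsewhere in the genome, among which reads can be divided in the counting, so the values are uncertain, and the cause was not tested.

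H19 and Mest, a pair of imprinted genes, were higher in endothelial cells. H19, a noncoding RNA of mesodermal tissue, was at 7.14 ± 0.41 RPKM in the Emx1-lineage and 90.94 ± 20.3 in endothelial cells (-3.88), with 754.2 in the kidney endothelial translatome. Mest was at 101.8 ± 4.27 against 1106 ± 58.0 (-3.64), with 2516 in the kidney. Other imprinted genes did not share a direction. Meg3 was also called higher in endothelial cells, Nnat was higher in the Emx1-lineage, and Rian and Mirg were not called. These genes were set side by side after their values were seen.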
